A study of Caenorhabditis elegans with 2 samples.

Results

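The genes described here are the nuclear snRNA genes of Caenorhabditis elegans other than the spliced leader (sls) genes, as annotated by RefSeq on WBcel235 (ce11). They are 99 of 129 nuclear genes of the snRNA biotype and of 46890 nuclear genes in all. The rule for members uses annotation alone and no peak values, although it was chosen with earlier results of these data known. The experiment was a chromatin immunoprecipitation with sequencing (ChIP-seq) of DAO-5, a nucleolar protein related to vertebrate Nopp140, carried out on whole animals. Both biological replicates came from hermaphrodites of strain OP252 at the L4/young adult stage, a stable transgenic line that carries DAO-5 with GFP and FLAG at its C-terminus. Chromatin was recovered with an antibody to GFP according to the experiment's description, although the antibody field of the labels names DAO-5 itself. There is 1 group, with no second condition and a control common to both replicates, and in whole animals the tissue that gave a peak cannot be told apart.

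Spliceosomal snRNAs are short RNAs that pair with introns and with each other to remove introns from pre-mRNA. U1 recognises the 5′ splice site, U2 the branch site, U5 holds the exon ends, and U6 takes over the 5′ splice site in the active spliceosome. Most are made by RNA polymerase II and receive a ring of Sm proteins, whereas U6 is made by RNA polymerase III from a promoter with a TATA box and carries LSm proteins. Maturation of these RNAs passes through Cajal bodies and nucleoli, and Nopp140, the vertebrate relative of DAO-5, is found in both. The label spliceosomal does not cover every member. Of the 99 genes, 10 are smy genes, which encode SmY RNAs, Sm-bound nematode RNAs linked with trans-splicing, and mir-1831 is a 22-base entry that lies within the snRNA gene sup-39.

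The reference does not name the snRNA type of these genes, so they were grouped by sequence at 80% or more identity, which left 74 distinct sequences in 7 groups and 17 single genes. Each group is called here by its commonest length. The 102-base group has 24 genes, of which 22 hold ACAGAG, the word with which U6 pairs with the 5′ splice site. The 187-base group has 19 genes, and 18 hold GTAGTA, the word of U2 that pairs with the branch site. The 165-base group has 13 genes, and 12 hold ACTTACC, the word of U1 that pairs with the 5′ splice site. It includes sup-6 and sup-39, known U1 snRNA genes whose mutations suppress splice-site mutations. The 122-base group has 12 genes, and 11 hold CCTTTTA, a word of the U5 loop. The remaining groups are 7 smy genes, a 144-base group of 5 genes and a pair on chromosome X. No type is given to the 144-base group or to the single genes.

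The transcripts below, from the RefSeq WBcel235 (ce11) genome and read along each gene's strand, show how the groups differ. They are the gene with the strongest peak in the 165-base and 144-base groups, a gene of the 187-base group, and M163.13, a single gene with a peak in the strictest list. The gene sup-6 lies at chrII:12944803-12944967 on the minus strand, C52E4.8 at chrV:11980118-11980261 on the plus strand, Y57G11C.35 at chrIV:14764848-14765034 on the minus strand and M163.13 at chrX:14476867-14476946 on the plus strand. Capitals mark the shared word of the 165-base and 187-base groups, and C52E4.8 and M163.13 hold none of them.
sup-6: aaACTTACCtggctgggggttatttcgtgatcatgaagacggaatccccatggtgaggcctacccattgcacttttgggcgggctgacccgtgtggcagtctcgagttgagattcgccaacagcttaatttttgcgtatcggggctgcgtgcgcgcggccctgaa
Y57G11C.35: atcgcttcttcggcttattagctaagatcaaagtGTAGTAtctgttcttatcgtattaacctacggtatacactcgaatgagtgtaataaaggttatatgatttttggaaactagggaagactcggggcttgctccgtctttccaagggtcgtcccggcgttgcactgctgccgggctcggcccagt
C52E4.8: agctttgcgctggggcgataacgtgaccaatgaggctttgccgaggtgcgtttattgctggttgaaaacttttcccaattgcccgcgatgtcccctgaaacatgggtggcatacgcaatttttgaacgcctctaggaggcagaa
M163.13: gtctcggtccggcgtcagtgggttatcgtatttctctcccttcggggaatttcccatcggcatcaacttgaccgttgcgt

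Peaks were taken from 4 deposited lists: 549 peaks thresholded on reproducibility, 16687 peaks called on pooled reads, 23091 in replicate 1 and 21273 in replicate 2. The pooled and replicate lists are relaxed lists that by the authors' account also hold background, and the pooled and thresholded lists come from the same reads as the replicates. Each peak carries a signal, the authors' own value, which is used here only to describe and rank peaks within a list. Sequencing depth is unknown.

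A peak lay within 200 bp of 6 of the 99 genes in the thresholded list, or 6.06%, against 2.2% of the 46791 other nuclear genes. In the pooled list 36 members, or 36.4%, had a peak, against 27% of other nuclear genes. In replicate 1 the count was 39 members, or 39.4%, against 33.5%, and in replicate 2 it was 43 members, or 43.4%, against 32.4%. Most snRNA genes therefore had no peak in any one list, and the members' share was above that of other nuclear genes in each of the 4. Longer genes have more room for a peak. Among other nuclear genes of at most 300 bp the pooled share was 14.1% and the thresholded share 2.24%, and among genome windows as long as the median member with its flanks they were 14.3% and 0.490%. The tRNA and snoRNA genes had larger shares than the members in each of the 4 lists, and the sls genes in all but the replicate 2 list. The 612 tRNA genes had a pooled peak in 82.7% of cases and a thresholded peak in 33.3%. The 346 snoRNA genes, whose RNAs guide rRNA modification in the nucleolus, had 53.8% and 18.8%. The 30 sls genes had 50% and 13.3%, and in replicate 2 their share was 43.3%, beside the members' 43.4%. These shares were not tested, since genes are not replicates and many copies share sequence.

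**Figure D1:**
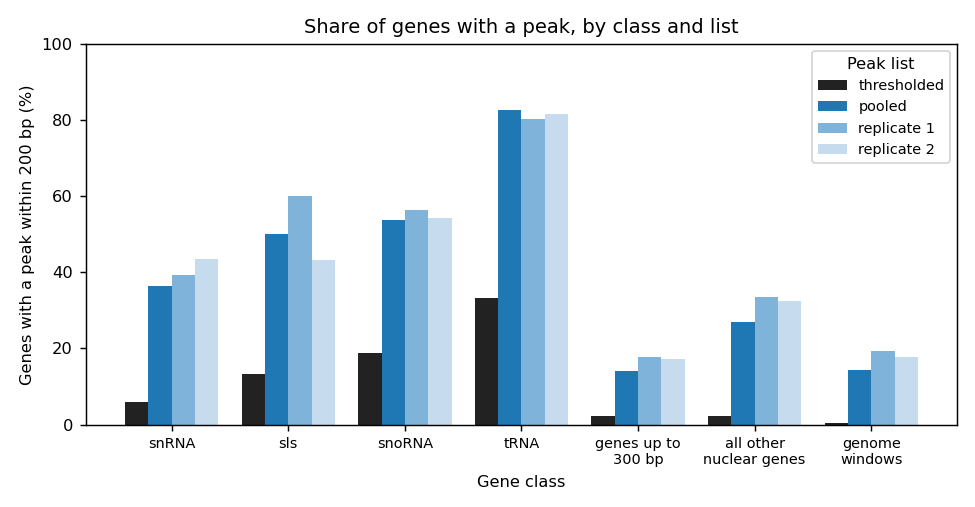
Bars give the percentage of genes of each class with a peak within 200 bp in the thresholded, pooled and replicate lists, with genome windows at the right. The snRNA bars reach 6.06%, 36.4%, 39.4% and 43.4%, below the tRNA bars in every list and above the bars of genes up to 300 bp.

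The 36 members with a pooled peak held 35 distinct peaks, since sup-39 and mir-1831 share theirs. Their signal ran from 16.8 to 108.2 with a median of 32.2, against 21.3 over all pooled peaks and 23.5 for the strongest peak of other nuclear genes with one. The medians in the replicate lists were 18.0 in replicate 1 and 15.4 in replicate 2, against 12.9 and 12.1 for other nuclear genes. These medians were above those of all other nuclear genes and below those of the other small RNA classes examined. In the pooled list tRNA genes with a peak had a median of 45.7, snoRNA genes 34.6 and sls genes 38.9, and the members were also below all 3 classes in each replicate list. In the thresholded list the median was 76.8 over 6 members, against 65.6 for other nuclear genes. There the members were above the tRNA genes, at 64.8, and below the snoRNA genes, at 83.4, and the sls genes, at 114.7.

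The strongest peak at any member was at W05B2.8, of the U6-type 102-base group. Its signal was 108.2 in the thresholded and pooled lists, 42.3 in replicate 1 and 61.8 in replicate 2, and it ranked 58th, 165th and 47th in the pooled, replicate 1 and replicate 2 lists. The gene lies on the same strand within dhc-4, a dynein heavy chain gene, and its flanks hold no repeated stretch. The summit lay 111 bp from the start, just past the gene's 3′ end, and the replicate summits lay at 118 and 105 bp.

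The U1-type 165-base group held 3 of the 6 thresholded peaks. The strongest was at sup-6, where the pooled signal was 96.3, the replicate 1 signal 40.7 and the replicate 2 signal 52.3. At H27M09.6 on chromosome I the signal was 68.8, 42.1 and 26.0 in the same order. At T08G5.11 it was 55.9, 24.0 and 30.6. All 3 pooled summits lay inside the gene, at 13, 129 and 156 bp from the start. The replicate 1 and replicate 2 summits of sup-6 lay at 14 and 188 bp, the latter beyond the gene's end. They lay at 111 and 156 bp for H27M09.6 and at 158 and 156 bp for T08G5.11. The gene sup-6 lies within F58G1.7 on the same strand. H27M09.6 shares its summit region with the start windows of 2 protein-coding genes, H27M09.5 and syp-4, which encodes a protein of the synaptonemal complex, and T08G5.11 with that of T08G5.3, so position alone does not assign these peaks to the snRNA genes.

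C52E4.8, of the 144-base group, reached 84.7 in the pooled list and 48.7 and 34.1 in replicates 1 and 2. Its summit lay 13 bp before the start, and its replicate 1 signal is the highest of all members. The same summit lies in the start window of snr-4, at −382 bp from its start, and snr-4 encodes an Sm protein. Position does not separate the snRNA gene from the snr-4 promoter. M163.13 on chromosome X, which has no relative at 80% identity, had a signal of 52.4, 18.98 and 32.3. It sits at the edge of the thresholded list, whose lowest signal is 51.8, and the next member below, Y9C9A.111, had a pooled signal of 49.7 and no thresholded peak. No other annotated tRNA, rRNA, snoRNA, miRNA or snRNA gene lies within 200 bp of any of the 6 thresholded peaks.

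**Figure D2:**
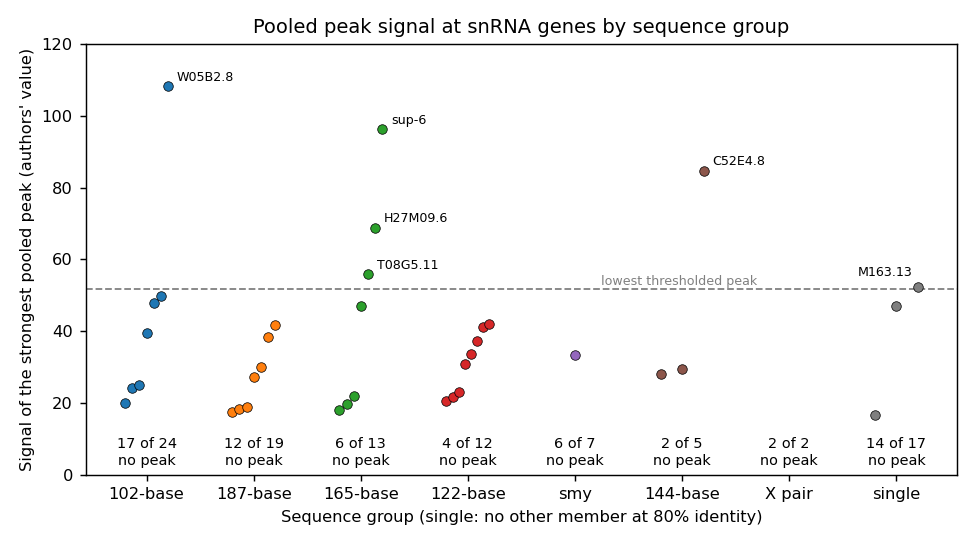
Each point is the pooled signal of the strongest peak within 200 bp of 1 snRNA gene, by sequence group, with the number of genes without a peak written at the bottom and the lowest thresholded signal as a dashed line. The 6 named genes lie above the line, at 52.4 to 108.2, and in every group with more than 1 gene some have no pooled peak.

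The replicates placed these genes differently in detail. Of the 99 genes, 29 had a peak in both replicate lists, 10 in replicate 1 only, 14 in replicate 2 only, and 45 had no peak in any list. A further case is smy-10, which had a pooled peak of 16.8 and none in either replicate. Over the 29 genes with both values the rank correlation of the signals was 0.643, which is given as a description, since sup-39 and mir-1831 share their peaks. Only sup-6, W05B2.8 and C52E4.8 ranked within the strongest 549 peaks of both replicates. H27M09.6 ranked 166th in replicate 1 and 632nd in replicate 2, while M163.13 ranked 2358th and 334th. The ratio of replicate 1 to replicate 2 signal was highest at ZK897.2 with 2.42, at K03B8.10 with 2.11 and at W04G5.11 with 2.01. It was lowest at F08G2.10 with 0.536, at M163.13 with 0.588 and at F54D8.7 with 0.602. The extremes on the high side were all weak in replicate 2, with signals of 8.92, 8.56 and 10.1, where the list's lowest value is 8.14.

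**Figure D3:**
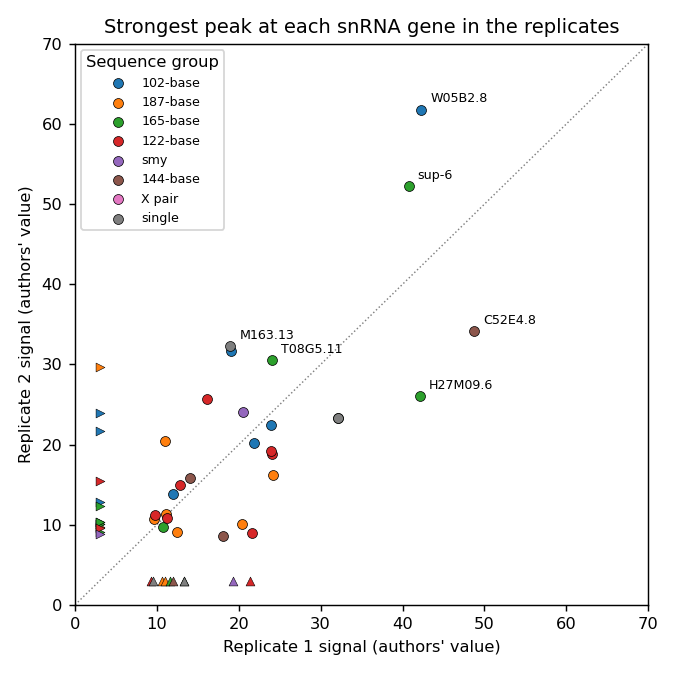
Each circle is 1 snRNA gene with a peak in both replicate lists, at its replicate 1 and replicate 2 signal, coloured by sequence group, with the dotted line of equal values. Triangles along the axes are genes with a peak in 1 replicate only, and the named genes are the 6 with a thresholded peak.

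By group, the 122-base genes, of U5 type by their word, had the largest share with a pooled peak, 8 of 12, although none was thresholded and none exceeded a signal of 42.1. The order differed in the replicate lists, where the largest share was 4 of 5 in the 144-base group in replicate 1 and 10 of 13 in the 165-base group in replicate 2, against 9 of 12 in the 122-base group in each. In the pooled list the 144-base group had 3 of 5 and the 165-base group 7 of 13. The 187-base genes of U2 type had 7 of 19, none thresholded and none above 41.7, and the 102-base genes had 7 of 24, with signals from 19.9 to 108.2. The smy group had 1 of 7, the X pair none of 2 and the single genes 3 of 17. The pooled share was 36.4% over all members and 27% over other nuclear genes. The 187-base share of 36.8% is near the former and the 102-base share of 29.2% near the latter. Differences between groups were not tested. In the 122-base group the signals of F38E11.10, F07C6.5 and ZK897.2 were 42.1, 41.2 and 33.7. In the 187-base group the highest was F11A5.14 at 41.7, which had a replicate 2 signal of 29.7 and no replicate 1 peak, followed by Y57G11C.35 at 38.3. In the 165-base group sup-39 had 46.9, with 32.2 in replicate 1 and 23.3 in replicate 2. Among the smy genes smy-1 had 33.4, near smy-2, whose RefSeq biotype is snoRNA. By chromosome, pooled peaks fell on 3 of 12 members on I, 7 of 13 on II, 4 of 7 on III, 13 of 36 on IV, 8 of 28 on V and 1 of 3 on X. None of the thresholded peaks was on chromosome IV, whose 36 members hold 26 distinct sequences. The share over all genes of that chromosome was not computed, so the count is not read as a trait of the chromosome.

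The annotations of T20D3.12 and T20D3.13 overlap, as do those of T27E4.12 and T27E4.22 and of sup-39 and mir-1831, so the 99 genes stand for fewer separate loci. Many members are copies of each other, and 32 have an identical copy. Signals differed within such sets even though the transcripts are the same letter for letter. The largest set has 14 copies of the W05B2.8 transcript, of which 5 had a pooled peak and 9 had no peak in any list. W05B2.8 had a pooled signal of 108.2, Y9C9A.111 on chromosome IV 49.7, C28A5.7 on III 39.4, R07E5.16 on III 24.9 and K09C6.12 on V 24.1. The 6 copies K09B11.11 to K09B11.16 lie within mam-3 on chromosome IV, at chrIV:13435785-13443846, a span of 8062 bp with no peak in the pooled or in either replicate list. Their flanks are also repeated. Of the stretches of 30 bases that lie in the 200 bp to each side of these genes, 18.4 to 52.9% occur elsewhere in the genome. Over the set the median was 7.31% for the 5 copies with a pooled peak and 30.7% for the 9 without. The 9 include the 6 K09B11 copies, and F54C8.8 and F54C8.9 that lie together within F54C8.6, so they are not separate loci. The ranges overlapped, with 22.2% at C28A5.7, which had a peak, and 18.4% at K09B11.12, which had none. Y17G9A.90, whose flanks hold no repeated stretch, also had no peak. How reads from repeated sequence were placed is not given in the sources used here, and its part in these differences was not tested.

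**Figure D4:**
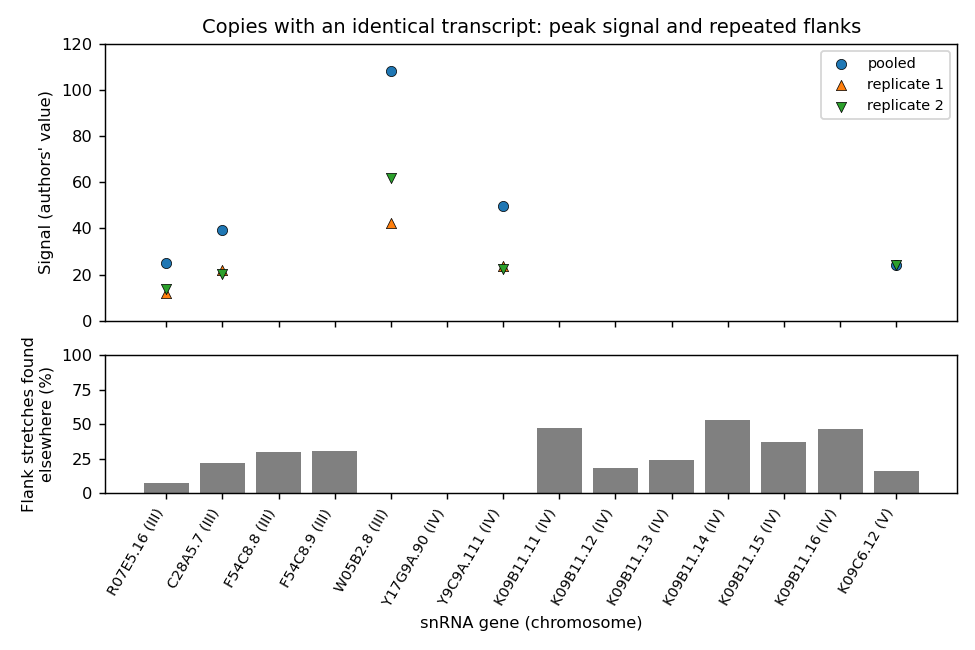
The upper panel gives the pooled and replicate signal at the 14 genes with the W05B2.8 transcript, and the lower panel the percentage of 30-base stretches in their flanks that occur elsewhere in the genome. The 5 genes with a pooled signal of 24.1 to 108.2 have flank shares of 0 to 22.2%, and a missing point means that the list has no peak there.

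Smaller sets varied likewise. C52E4.8 and T11F9.15 have the same 144-base transcript, and their pooled signals were 84.7 and 28.1, with the T11F9.15 summit 523 bp past the start. ZK897.2 and F07C6.5 had 33.7 and 41.2. F38E11.10 and F38E11.11 had 42.1 and 21.7, the latter with no replicate 2 peak. F15H9.5 and F15H9.6, whose flanks are 100% repeated, had no peak in any list, and neither did B0205.15, Y47H9A.2, R05D7.6 and F56H6.16. Across all members the flanks had a median repeated share of 0% for genes with a pooled peak and 6.14% for genes without. The 5 genes above 50% all lacked a pooled peak, but so did 63 of all 99 members. Any link between repeated flanks and peaks was not tested. A repeated stretch in the gene body was present in 81 of the 99 members. Of those 81, 33 had a pooled peak, or 40.7%, against 3 of the 18 others, or 16.7%, namely mir-1831, smy-1 and smy-10. At 22 bases mir-1831 is too short to hold a stretch of 30. It shares its peak with sup-39, in whose body 68.4% of the stretches are repeated. An identical copy existed for 14 of 36 members with a pooled peak and for 18 of 63 without.

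The letters upstream differ between groups. The word TATAA, searched on the gene strand 15 to 40 bp before the start, was in 18 of 99 members against 7.57% of other nuclear genes. Of the 18, 16 belong to the 102-base group of 24, and M163.13 is one of the other two. It was found in none of the 165-base, 187-base, 122-base, 144-base or smy genes. The commonest word of 7 bases 30 to 90 bp upstream, GCGGAAC, was in 28 of 99 members against 0.165% of other nuclear genes, and in 10 of 13 genes of the 165-base group, 5 of 7 smy genes and 6 of 12 of the 122-base group. That word was picked because it was the most frequent among these members. None of the 187-base genes held it. The word ATGTC, which was chosen after the upstream sequences had been seen, lay 35 to 75 bp upstream in 30 members against 2.24% of other genes. After the end, TTTT within 20 bp was in 17 of 24 genes of the 102-base group and in none of the 165-base or 187-base groups, with 30 of 99 overall against 35.8% of other genes. A match is a description of letters. With a pooled peak, 13 of 36 members held GCGGAAC, against 15 of 63 without, and 8 of 36 held TATAA against 10 of 63. For ATGTC the counts were 15 of 36 against 15 of 63, and for TTTT after the end 11 of 36 against 19 of 63.

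The 90 bases before the start show the words in place, with each of the 3 upstream words in capitals where it falls in its window. They are from RefSeq WBcel235 (ce11), along the gene strand, for copies with and without a peak. W05B2.8, Y9C9A.111 and K09B11.12 have the same transcript, with pooled signals of 108.2, of 49.7 and none. Among the 14 copies of this transcript, GCGGAAC was in 1 with a pooled peak, W05B2.8, and in 1 without, Y17G9A.90, which is not printed. M163.13 is the single gene with a thresholded peak, and sup-6 and T08G5.11 are of the 165-base group. The windows lie at chrIII:10989589-10989678 on the plus strand, chrIV:4930864-4930953 on the plus strand, chrIV:13439007-13439096 on the plus strand, chrX:14476777-14476866 on the plus strand, chrII:12944968-12945057 on the minus strand and chrV:14028636-14028725 on the minus strand.
W05B2.8: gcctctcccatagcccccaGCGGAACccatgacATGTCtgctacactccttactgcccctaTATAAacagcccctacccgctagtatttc
Y9C9A.111: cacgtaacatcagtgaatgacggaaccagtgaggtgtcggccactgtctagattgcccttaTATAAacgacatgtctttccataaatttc
K09B11.12: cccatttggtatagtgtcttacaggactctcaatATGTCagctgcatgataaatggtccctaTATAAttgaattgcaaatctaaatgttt
M163.13: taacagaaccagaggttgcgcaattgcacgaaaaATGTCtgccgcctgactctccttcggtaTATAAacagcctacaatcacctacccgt
sup-6: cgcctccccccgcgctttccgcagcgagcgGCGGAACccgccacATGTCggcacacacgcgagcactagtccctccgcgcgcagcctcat
T08G5.11: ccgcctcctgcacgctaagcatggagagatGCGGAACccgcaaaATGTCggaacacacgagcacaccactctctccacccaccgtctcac

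The summit of the strongest pooled peak at each of the 36 genes lay at a median of 91 bp from the start, from 151 bp before it to 528 bp after. The shared summit of sup-39 and mir-1831 is counted for both genes, each time beyond the end. Of the 36 positions, 13 were upstream, 13 inside the gene and 10 beyond its end, and 29 were inside or within 100 bp of the gene. The 6 thresholded summits lay closer: 4 inside, 1 before the start and 1 past the end, none more than 13 bp outside. In the pooled list the 102-base group had 5 of 7 summits before the start and a median of −23 bp. The pooled median was 129 bp in the 165-base group and 160 bp in the 187-base group. The replicate 1 summits of the 102-base group did not stand to the upstream side, at 81, 218, −75, 118 and −52 bp. Its replicate 2 summits lay at 71, −68, −53, −22, 105, −386, −23, −49 and 119 bp. These positions are near the resolution of the lists. Over the 29 genes with both, the replicate summits differed by a median of 141 bp, and by 100 bp or less for 14, and the median peak in the lists was 420 to 436 bp wide. At the 6 thresholded genes the difference ran from 2 to 174 bp. Other genes lie close. Of the 99 members, 56 lie within a protein-coding gene, 34 on its strand, and 18 of 36 members with a pooled peak did so against 38 of 63 without. At 13 of the 36 the summit also lay in the start window of a protein-coding gene, which reaches from 1000 bp upstream to 200 bp downstream. The same share over all pooled peaks was not computed. Whether such genes account for a peak was not tested.

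**Figure D5:**
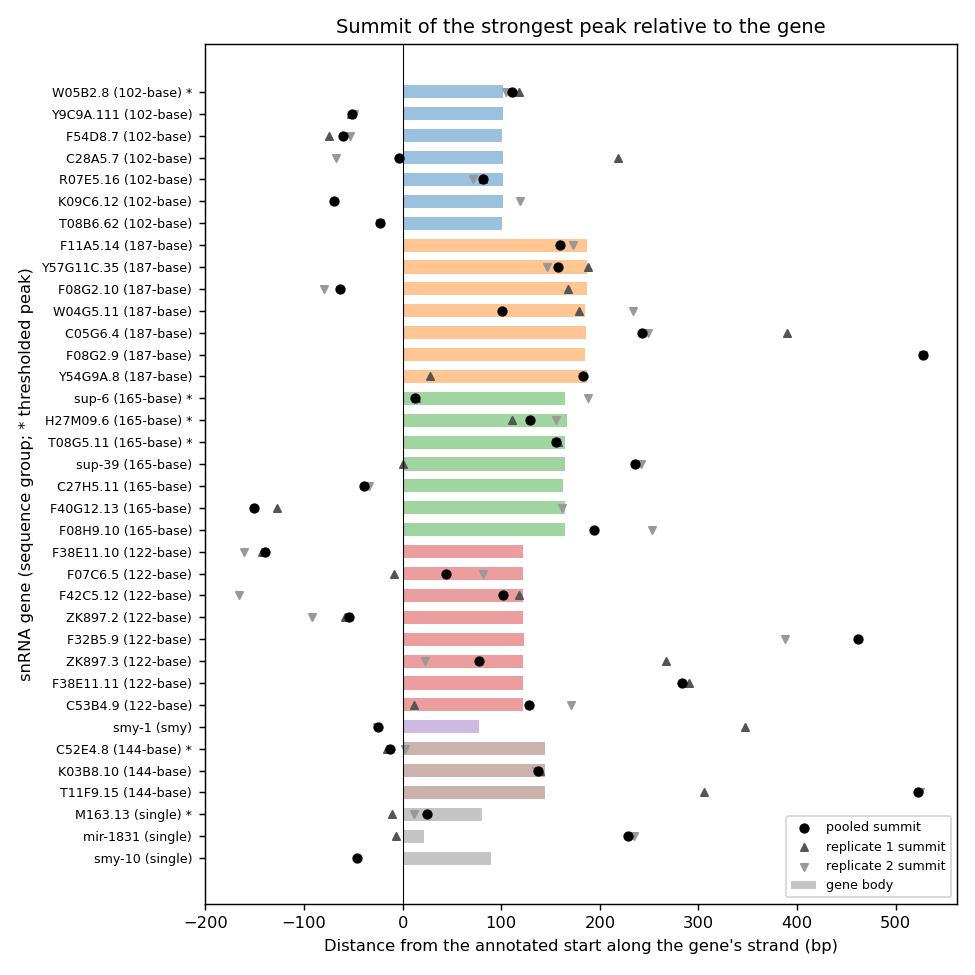
Each row is 1 snRNA gene with a pooled peak, with the gene body as a bar, the pooled summit as a black dot and the replicate summits as triangles, in bp from the annotated start. Pooled summits run from −151 to 528 bp, and the 6 thresholded genes, marked with an asterisk, lie inside the gene or at most 13 bp outside it.

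Protein genes of the spliceosome and of snRNA production were set beside these RNA genes, using a list of 65 of which 60 were matched by name. A thresholded summit lay in the start window of 4 of the 60, or 6.67%, against 1.2% of other nuclear protein-coding genes. They are ints-4, a subunit of the Integrator complex that forms snRNA 3′ ends, with a signal of 74.96; mog-4, a DEAH-box splicing helicase, with 61.2; snr-1, an Sm protein gene, with 58.9; and snr-4, with the 84.7 peak that it shares with C52E4.8. Signals here are those of the thresholded list. In the pooled list 28 of 60 had a summit in the window, or 46.7%, against 23.6% of other protein-coding genes.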

How the data were processed

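Peak lists of a DAO-5 ChIP-seq with 1 group of 2 biological replicates were used. Per the labels and the submitters' notes, peaks were called against a control in each replicate and on pooled reads, and a further list was thresholded on the irreproducible discovery rate. How reads from repeated sequence were placed, the aligner, the peak caller and the threshold are not given in the sources used here. Peaks in ce11 carry a signal and a summit offset, both used as deposited by the authors. The −log10 q value, also deposited by the authors, decided no result, and the lists in ce10 were not used. No test was run, since there is 1 group and genes are not replicates, so values are descriptions. Depth is unknown, and no interval is given.

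Members were RefSeq nuclear snRNA genes not named sls, with coordinates 1-based. The strongest peak within 200 bp of each gene was taken, and the same was counted over all other nuclear genes. Sequences were grouped by single linkage at 80% identity. Named genes were those with a thresholded peak, the 15 strongest pooled signals, the 3 highest and 3 lowest replicate ratios, 6 members with no pooled peak in genome order, and listed protein genes with a thresholded summit. Genes outside this rule, such as other copies of the same sequence, were named after their values were seen. The members and lists were chosen with earlier results of these data known. Alternatives were other distances, 1 gene per set of identical sequences, genes with no repeated stretch, stronger peaks only, other identity limits and each replicate alone. Calculations used Python 3.11.15, pandas 2.3.3, scipy 1.17.1 and biopython 1.88, and peak assignment was tested on simulated data. Transcript sequences of the 102-base and 122-base groups are not reported here.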

Additional observations from a re-analysis of the deposited data

How the results depend on the processing

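Thresholded peaks were at 6 members as reported and at 4 to 7 under all other settings, except among members with no repeated 30-base stretch, where the count was 0, and the corresponding pooled count was 3 against 36. Those settings keep 18 of the 99 genes, among them mir-1831, which is too short to hold a 30-base stretch. The pooled count was otherwise 28 to 47, and 43 in replicate 2 or 39 in replicate 1 alone. The median signal was 76.8 over thresholded members alone against 32.2 as reported. The median summit of 91 bp became 77 with overlap required, 81 within 500 bp, 68 for thresholded members, 106.5 with 1 gene for each set of identical sequences and 101.5 with the nearest summit. It ran from 105 to 115 when 1 replicate was left out, and the cause of these shifts was not tested. With the strongest 10% of each replicate list in place of the strongest 549, 12 members ranked high in both. Of the spliceosome protein genes, 2 had a summit among the strongest 50% of the thresholded peaks, against 4. No paired analysis was possible because the study has 1 group. The signal's scaling and the read depth are unknown, so a missing peak shows no lack of binding. Reads that lie wholly within sequence identical between copies cannot be told apart.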

Other observations

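Of the 17 single genes, 6 lie within cyp-34A cytochrome P450 genes on chromosome V, and none had a pooled or replicate 2 peak. Over all 99 members, 36 had a pooled peak and 43 a replicate 2 peak, and the difference was not tested. The best identity of these 6 genes to another member was 71.4 to 78.1%, under the limit used for grouping. In replicate 1, B0213.21 had a signal of 9.46 and B0213.22 one of 13.3, both under the replicate 1 median of 18.0 over members. Of the 10 smy genes, 2 had a pooled peak, smy-1 at 33.4 and smy-10 at 16.8, and smy-5 had a replicate 1 signal of 19.3 with no replicate 2 peak. In the 165-base group T27E4.10, T27E4.11, T27E4.12 and T27E4.22 had no pooled peak. T27E4.12 and T27E4.22 are overlapping annotations and share a replicate 2 peak with a signal of 10.4, and T27E4.10 had a replicate 2 signal of 10.1.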
